A study of Mus musculus with 15 samples.

Results

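The genes described here are 44 genes of DNA damage signalling and repair, taken as a fixed list of symbols from the 23412 genes counted in each of 15 RNA-seq libraries of mouse embryonic stem cells (mESCs). They fall into 7 roles, with 10 genes of homologous recombination, 7 of end processing and helicases, 10 of checkpoint signalling and fork protection, 7 of the Fanconi anemia pathway, 3 subunits of replication protein A, 4 of end joining, and 3 of single-strand break and mismatch repair. Every symbol was found in every library, and all 44 passed the filter on low counts, with 71 reads as the lowest count of any of them in any library.

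A DNA double-strand break is sensed by the MRE11-RAD50-NBN complex and the kinase ATM, and single-stranded DNA coated by replication protein A activates the kinase ATR and its effector CHK1. Breaks are then repaired by end joining, which starts with the Ku heterodimer, or by homologous recombination, in which BRCA1, PALB2 and BRCA2 act with a group of paralogous proteins to copy the sequence from an intact template. The Fanconi anemia proteins recognise crosslinked DNA and stalled forks, where FANCD2 and FANCI become ubiquitinated. mESCs divide rapidly, spend much of the cycle in S phase and express many repair genes at high levels.

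The study compared cells lacking STAG1 or STAG2, alternative subunits of the cohesin ring, and polyadenylated RNA was sequenced from v6.5, a male mESC line grown on gelatin. The conditions were wild-type cells with the transfection control siGLO (WT siGLO), wild-type cells with an siRNA against Stag1 (WT siStag1), Stag1 knockout cells with siGLO (Stag1-KO), Stag2 knockout cells with siGLO (Stag2-KO) and Stag2 knockout cells with the Stag1 siRNA (Stag2-KO siStag1). All cells, controls included, received 50 nM of siRNA or siGLO and were harvested after 48 h, and each condition had 3 libraries. Each knockout was 1 CRISPR clone, so genotype and clone cannot be told apart. The study calls the replicates biological, and the labels do not say that they came from separate cultures, so p-values measure the spread between these libraries only.

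Reads on genes numbered 14982560 to 19070126 per library, of which the 44 genes held 0.541% to 0.63%. Stag1 was at 517, 456 and 353 normalized read counts in WT siStag1 and 2288, 2137 and 2012 in WT siGLO, and at 667, 781 and 629 in Stag2-KO siStag1 and 1875, 2204 and 1936 in Stag2-KO. The siRNA lowered Stag1 by log2 fold changes of −2.28 in wild-type cells and −1.53 in Stag2-KO cells. The difference of 0.75 was not called (adjusted p = 0.254), but was called with the replicate number as a block in the fit (adjusted p = 0.0253). Stag2 was at 663, 739 and 675 in Stag2-KO, 851, 931 and 940.5 in Stag2-KO siStag1 and 2329, 2334 and 2329 in WT siGLO, and was higher in Stag2-KO siStag1 than in Stag2-KO (log2 fold change 0.39, adjusted p = 0.0808). Stag1 counts in Stag1-KO (1826, 2368 and 1875) overlapped WT siGLO and so do not check that label. According to the study, the allele of that clone loses codons without a shift of frame, and it is the protein that is missing. The summed level of 8 embryonic stem cell markers was 107414 to 112231 in WT siGLO, and all 8 were detected in every condition. The sum was 100858 to 107979 in WT siStag1, where 0 were called, 89373 to 103459 in Stag1-KO, where Pou5f1 fell, 84323 to 102432 in Stag2-KO, where Esrrb, Zfp42 and Dppa5a fell, and 63892 to 83043 in Stag2-KO siStag1, where Esrrb, Zfp42, Nanog, Dppa5a, Sox2 and Pou5f1 fell. With the block, Zfp42 was called lower in Stag1-KO (adjusted p = 0.0292) and WT siStag1 (0.0662) too, and Sox2 in Stag2-KO (0.0655). The 8 fibroblast and feeder markers summed to 348 to 697 over all libraries, with Dcn and Lum at 0 in all WT siGLO libraries. Among them Col3a1 was at 96.3, 21.6 and 8.45 in Stag2-KO, 84.8, 21.8 and 9.1 in Stag2-KO siStag1 and 4.67, 10.2 and 14.5 in WT siGLO, with replicate 1 of both knockout conditions apart, and was called higher (adjusted p = 0.0918 and 0.0807), while Pdgfrb fell in Stag2-KO (log2 fold change −0.81, adjusted p = 0.0933). In Stag1-KO, Thy1 was called lower with the block (adjusted p = 0.0592) and not without it. The 10 differentiated lineage markers summed to 2632 to 2872 in WT siGLO, 2868 to 3059.6 in WT siStag1, 1352 to 1647 in Stag1-KO, 2079 to 3539 in Stag2-KO and 2885 to 4334 in Stag2-KO siStag1. Those sums join opposite changes, since the endoderm genes Gata6, Sox17 and Gata4 fell in all 3 knockout conditions (log2 fold changes of −2.30, −2.72 and −2.42 in Stag2-KO). In Stag2-KO and Stag2-KO siStag1 Eomes fell too, and T, Fgf5, Meis2, Pax6 and Nes rose (3.80, 3.25, 2.85, 2.71 and 1.15 in Stag2-KO), while in Stag1-KO Cdx2 rose (1.71). Over the 758 genes tested on chromosome 8, log2 fold changes against WT siGLO had medians of −0.19 for Stag1-KO, −0.21 for Stag2-KO, −0.23 for Stag2-KO siStag1 and 0.00 for WT siStag1. The part of these shifts in the values of the repair genes was not tested.

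Values are normalized read counts, that is, reads divided by the scaled library size and brought to a common depth, given for replicates 1, 2 and 3 in that order. A gene was called when the adjusted p of edgeR's two-sided quasi-likelihood test (Benjamini-Hochberg adjustment over all 14508 genes tested) was under 0.1. The error after ± is the standard error of the log2 fold change, with 3 libraries per condition.

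In WT siGLO the repair genes spanned a wide range of levels. Per kilobase of annotated exon, the highest mean level was that of H2afx, the histone variant phosphorylated around breaks, at 5721 ± 276 (SD, n = 3) normalized reads per kilobase. The mismatch sensor Msh6 followed with 3756 ± 286, and Parp1, which senses strand breaks, with 3195 ± 297. The ranges of 1 SD around Msh6 and Parp1 overlapped, and that of H2afx lay above both. The lowest levels were those of Fancc at 33.9 ± 3.97, Rad51b at 38.7 ± 5.79 and Rbbp8 at 42.7 ± 1.17, and the range of Rad51b overlapped both others within 1 SD.

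Repair genes were lower more often than higher in all 3 knockout conditions. In Stag1-KO, 9 of the 44 were called, all of them lower (20.5%), against 20.0% of all genes tested that were called in either direction, 10.1% higher and 9.93% lower. In Stag2-KO, 9 were called, again all lower (20.5%), against 28.3% of all genes called, 13.9% higher and 14.4% lower. In Stag2-KO siStag1, 23 were called, 19 lower (43.2%) and 4 higher, against 43.9% of all genes called, 21.3% lower and 22.6% higher. The share of members called in either direction was thus near that of all genes in Stag1-KO, below it in Stag2-KO and above it in Stag2-KO siStag1 (52.3% against 43.9%). The share of members called lower was above that of all genes in each of these comparisons. The list was chosen with earlier results of these data known, so these shares describe it and are not an independent test. The median log2 fold change of the 44 was −0.17 in Stag1-KO, −0.12 in Stag2-KO and −0.20 in Stag2-KO siStag1, against −0.01, 0.01 and 0.01 for all genes tested. Stag1-KO, Stag2-KO, WT siStag1 and Stag2-KO siStag1 were each compared with the same 3 WT siGLO libraries.

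**Figure D1:**
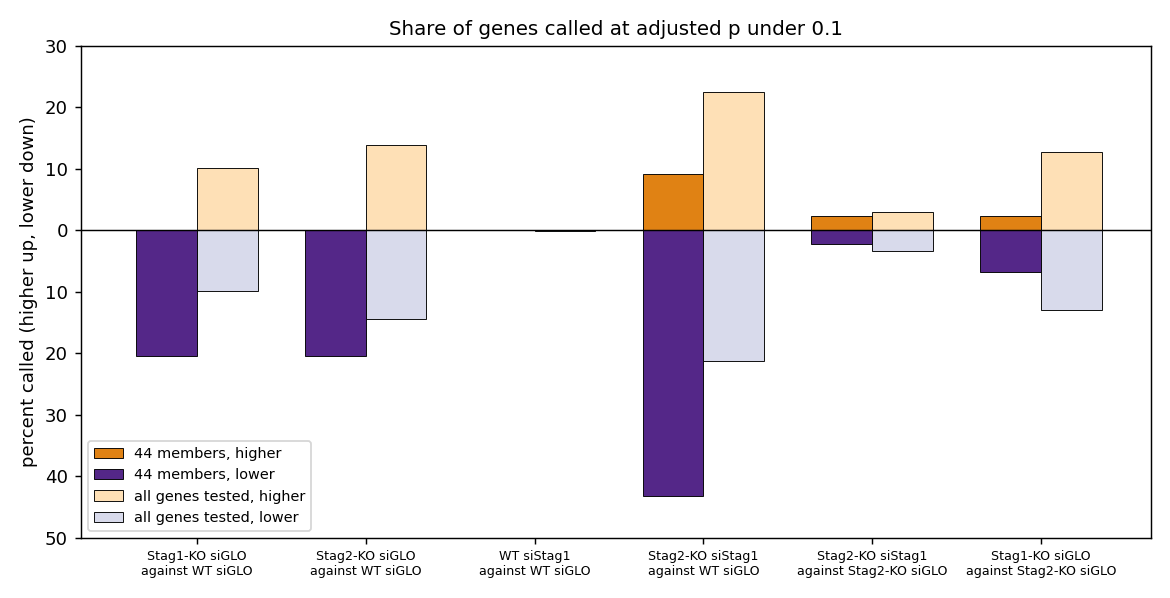
Percent of the 44 repair genes (dark bars) and of all 14508 genes tested (pale bars) called higher (upward) or lower (downward) at adjusted p under 0.1 in 6 comparisons. The bars of the 44 genes reach 20.5% lower in Stag1-KO and in Stag2-KO and 43.2% lower in Stag2-KO siStag1, with 0 higher in both single knockouts.

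Libraries with the same replicate number deviated together in the comparisons of Stag1-KO and Stag2-KO with WT siGLO. With the replicate number as a block, 17 members were called in Stag1-KO, all lower, against 30.6% of all genes called, 15.3% higher and 15.3% lower. The 8 added were Brca1, Xrcc2, Chek1, Topbp1, Tipin, H2afx, Fancm and Xrcc5. In Stag2-KO the block gave 19 called members, 17 lower and 2 higher, against 39.4% of all genes called, 19.6% lower and 19.9% higher. Rad51b, Xrcc3, Rad54l, H2afx, Fancm, Brip1, Lig4 and Prkdc were the lower genes added, and Nbn and Exo1 were the higher ones. None of the 9 calls in either knockout was lost with the block. By role, the block called 5 homologous recombination genes in Stag1-KO and 6 in Stag2-KO, 2 and 4 of end processing, 4 and 1 of checkpoint signalling, 4 and 5 of the Fanconi pathway, and 2 and 3 of end joining. Counts in the paragraphs on each role are without the block unless it is named.

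**Figure D2:**
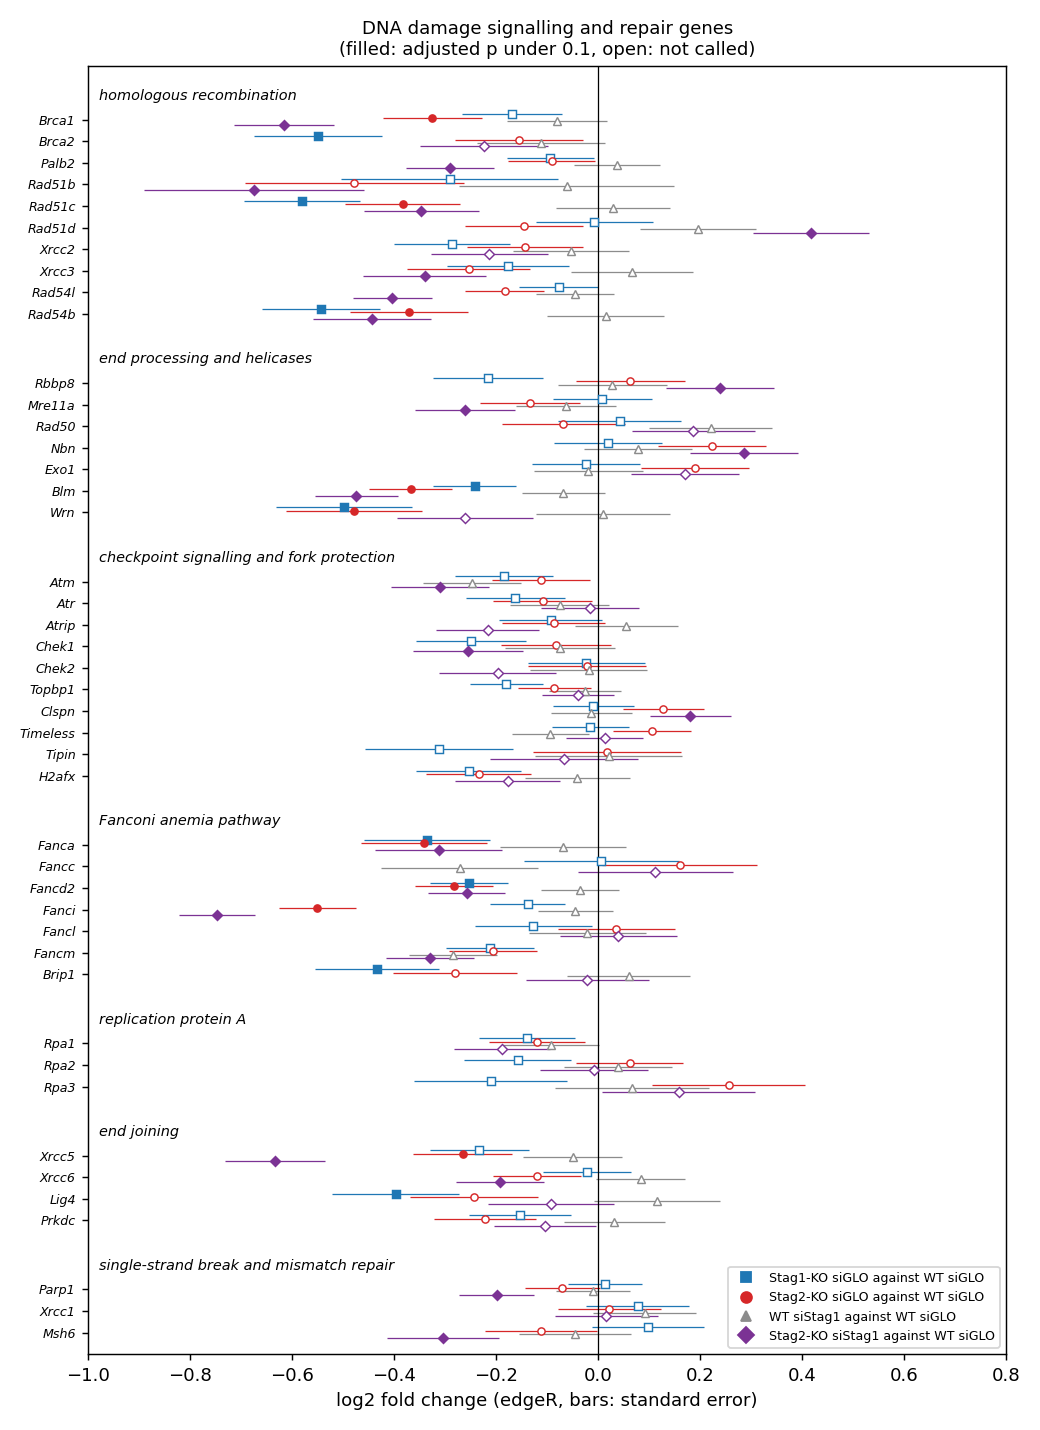
Log2 fold change (horizontal axis, bars are standard errors) of each of the 44 genes, grouped by role, in the 4 comparisons with WT siGLO, with filled symbols for called genes. Filled symbols lie to the left of 0 except for Rad51d, Rbbp8, Nbn and Clspn in Stag2-KO siStag1, and the WT siStag1 symbols are all open.

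Rad51c, Rad54b, Blm, Fanca and Fancd2 were called lower in all 3 of Stag1-KO, Stag2-KO and Stag2-KO siStag1. Wrn was called lower in both single knockouts and not in Stag2-KO siStag1. Brca2, Brip1 and Lig4 were called in Stag1-KO and not in Stag2-KO, and Brca1, Fanci and Xrcc5 in Stag2-KO and not in Stag1-KO. Of these 6, Brca2 and Fanci were also called between the knockouts themselves. With the replicate block, Brip1 and Lig4 were called lower in Stag2-KO too, and Brca1 and Xrcc5 in Stag1-KO.

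Promoter sequences are shown for 5 genes called lower against WT siGLO, from homologous recombination (Brca2, Rad51b, Xrcc3), the Fanconi pathway (Fanca) and end joining (Xrcc5), whose 250 bases before the first listed start overlap no annotated exon. Parp1 and Msh6 also met this and are not shown. The sequences come from RefSeq on GRCm38.p6 (mm10), whose promoter table held 32 of the 44 genes, and run 5′ to 3′ on the gene's strand. The other 12 genes were Rad51d, Xrcc2, Rad54b, Rbbp8, Rad50, Nbn, Exo1, Wrn, Tipin, H2afx, Fancd2 and Prkdc. Capitals mark matches on either strand to the E2F-type motifs TTCCCGC and TTGGCGC, the NRF1-type motif GCGCATG, the NFY-type motif CCAAT or the CHR-type motif TTTGAA.
Brca2, chr5:150522371-150522620, plus strand: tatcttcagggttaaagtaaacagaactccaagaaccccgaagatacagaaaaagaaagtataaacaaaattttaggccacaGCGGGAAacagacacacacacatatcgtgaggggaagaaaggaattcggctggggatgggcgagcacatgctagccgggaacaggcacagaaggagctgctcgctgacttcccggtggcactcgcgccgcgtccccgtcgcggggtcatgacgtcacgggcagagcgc
Rad51b, chr12:79297032-79297281, plus strand: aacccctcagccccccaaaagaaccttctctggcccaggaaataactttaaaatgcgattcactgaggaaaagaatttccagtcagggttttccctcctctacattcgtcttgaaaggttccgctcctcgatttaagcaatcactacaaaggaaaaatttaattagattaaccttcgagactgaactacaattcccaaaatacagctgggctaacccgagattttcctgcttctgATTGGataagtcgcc
Xrcc3, chr12:111813880-111814129, minus strand: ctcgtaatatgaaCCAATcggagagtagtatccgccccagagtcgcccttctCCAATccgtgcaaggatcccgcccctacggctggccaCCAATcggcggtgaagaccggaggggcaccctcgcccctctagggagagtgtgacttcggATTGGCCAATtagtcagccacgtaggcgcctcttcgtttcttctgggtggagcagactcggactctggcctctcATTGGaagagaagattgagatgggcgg
Fanca, chr8:123318577-123318826, minus strand: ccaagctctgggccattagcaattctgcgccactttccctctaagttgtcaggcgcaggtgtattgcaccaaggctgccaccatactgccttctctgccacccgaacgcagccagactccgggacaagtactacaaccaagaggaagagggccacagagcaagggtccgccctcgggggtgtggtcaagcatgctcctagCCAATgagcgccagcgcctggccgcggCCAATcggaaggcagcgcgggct
Xrcc5, chr1:72307171-72307420, plus strand: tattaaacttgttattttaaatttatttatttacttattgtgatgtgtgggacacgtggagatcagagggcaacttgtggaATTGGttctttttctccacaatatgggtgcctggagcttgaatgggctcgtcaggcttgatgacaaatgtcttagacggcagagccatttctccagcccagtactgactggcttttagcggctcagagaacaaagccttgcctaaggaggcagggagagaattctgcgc

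Over the first listed start of each gene and 300 bases from 250 before to 50 after it, an E2F-type motif was in 12 of the 32 members' promoters (37.5%), against 6.93% of 27025 promoters of all genes. Among them, TTCCCGC was in 9 members (28.1%, against 4.66% of all) and TTGGCGC in 3 (9.38%, against 2.54%). CCAAT was in 22 of 32 (68.8%, against 37.9%) and GCGCATG in 6 (18.8%, against 4.04%). TTTGAA was in 0 of the 32, against 18.1% of all promoters. In the members' promoters, 1 pair of matches overlapped. Counting every listed start, an E2F-type match was found for 13 members, 8 of the 17 with a promoter that were called lower in Stag2-KO siStag1 and 5 of the 14 not called there. A match is a run of letters and not a measured binding site.

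On mm10 (GENCODE M21), the members whose values follow in most detail lie at chr11:101488764-101551955 on the minus strand (Brca1), chr5:150522630-150570329 on the plus strand (Brca2), chr11:87376645-87404954 on the minus strand (Rad51c), chr11:82876434-82890614 on the minus strand (Rad51d), chr4:11558922-11615805 on the plus strand (Rad54b), chr7:80454733-80535119 on the minus strand (Blm), chr7:79391929-79450264 on the plus strand (Fanci) and chr1:72307421-72394952 on the plus strand (Xrcc5).

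Among the homologous recombination genes, 3 of 10 fell in Stag1-KO, 3 of 10 in Stag2-KO and 7 of 10 in Stag2-KO siStag1, where 1 rose. Of all genes tested, 9.93%, 14.4% and 21.3% were lower in these comparisons, and 20.0%, 28.3% and 43.9% were called in either direction, which is the background for each role below. Brca2, a mediator of strand invasion that binds single-stranded DNA, was at 1800.2, 1916 and 1410.2 in Stag1-KO and 2831, 2455 and 2217 in WT siGLO. All 3 Stag1-KO libraries lay below all 3 wild-type ones, and Brca2 fell by 31.7% (log2 fold change −0.55 ± 0.13, adjusted p = 0.00771). In Stag2-KO it was at 2239.9, 2324 and 2177, which overlapped WT siGLO (log2 fold change −0.15 ± 0.13, adjusted p = 0.411), and in Stag2-KO siStag1 at 2187, 2046 and 2194 (log2 fold change −0.22 ± 0.13, adjusted p = 0.179). Its level was lower in Stag1-KO than in Stag2-KO (log2 fold change −0.40 ± 0.13, adjusted p = 0.0394), a call that was lost without Stag1-KO replicate 3 or Stag2-KO replicate 2, with adjusted p = 0.109 to 0.149.

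Brca1, which promotes resection and recruits PALB2, was lowest in Stag2-KO siStag1. It was at 3821, 4271 and 3968 in WT siGLO, 3021, 3231 and 3375 in Stag2-KO and 2389, 2766 and 2715 in Stag2-KO siStag1. The Stag2-KO libraries were all below WT siGLO, and those with the Stag1 siRNA were lower still, with no overlap between these 3 conditions. Brca1 fell in Stag2-KO (log2 fold change −0.33 ± 0.10, adjusted p = 0.0276; lost without WT siGLO replicate 2, with adjusted p = 0.12) and fell by 34.7% in Stag2-KO siStag1 (log2 fold change −0.62 ± 0.10, adjusted p = 0.000154). In Stag1-KO it was at 3127, 4175 and 3424, with replicate 2 inside the wild-type range (log2 fold change −0.17 ± 0.10, adjusted p = 0.283, or 0.0935 with the replicate block). Palb2, the link between BRCA1 and BRCA2, was at 571, 551 and 534 in Stag2-KO siStag1 and at 670.4, 693 and 662 in WT siGLO, without overlap, and fell (log2 fold change −0.29 ± 0.09, adjusted p = 0.0143). It was called in none of the other 6 tests.

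Rad51b, Rad51c, Rad51d, Xrcc2 and Xrcc3 are paralogs whose products form 2 complexes that support strand invasion. In Stag2-KO siStag1, Rad51b, Rad51c and Xrcc3 fell, Rad51d rose and Xrcc2 was not called. Rad51c, present in both complexes, was at 427, 469 and 469 in WT siGLO, 297, 339.7 and 276 in Stag1-KO, 339, 331 and 377 in Stag2-KO and 316, 391 and 366 in Stag2-KO siStag1. Every library of the 3 knockout conditions was below every WT siGLO library. It fell in Stag1-KO (log2 fold change −0.58 ± 0.11, adjusted p = 0.0025), Stag2-KO (log2 fold change −0.38 ± 0.11, adjusted p = 0.0249) and Stag2-KO siStag1 (log2 fold change −0.35 ± 0.11, adjusted p = 0.0241). Rad51b, at low counts, was at 70, 102 and 101 in Stag2-KO siStag1 and 127, 139 and 169 in WT siGLO, without overlap, and fell (log2 fold change −0.67 ± 0.22, adjusted p = 0.0226). In Stag2-KO it was at 95.2, 100.2 and 117, also below every wild-type library (log2 fold change −0.48 ± 0.21, adjusted p = 0.127, or 0.0332 with the block). Xrcc3, the partner of RAD51C in the smaller complex, was at 343, 426 and 354 in Stag2-KO siStag1 and 473, 454 and 495 in WT siGLO. It fell (log2 fold change −0.34 ± 0.12, adjusted p = 0.0373), and the call was lost without WT siGLO replicate 3 or Stag2-KO siStag1 replicates 1 or 3, with adjusted p = 0.103 to 0.117. Xrcc2 was at 446, 431 and 465 in Stag2-KO siStag1 and 496, 531 and 529 in WT siGLO and was not called (log2 fold change −0.21 ± 0.11, adjusted p = 0.158).

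Rad51d was the paralog that rose. It was at 674, 786 and 740.2 in Stag2-KO siStag1, 484, 489 and 516 in Stag2-KO and 447, 575 and 625 in WT siGLO. All 3 Stag2-KO siStag1 libraries lay above every Stag2-KO and WT siGLO library. Rad51d rose against WT siGLO (log2 fold change 0.42 ± 0.11, adjusted p = 0.00925) and against Stag2-KO (log2 fold change 0.56 ± 0.11, adjusted p = 0.0103). In WT siStag1 it was at 608, 598 and 680.0, overlapping WT siGLO (log2 fold change 0.20 ± 0.11, adjusted p = 0.916), and the difference between the siRNA effects in both genotypes was 0.37 on the log2 scale, with a 95% interval of 0.05 to 0.69 (adjusted p = 0.805). In Stag2-KO without the siRNA it was not called (log2 fold change −0.15 ± 0.12, adjusted p = 0.399).

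The strand-exchange motors Rad54l and Rad54b both fell in Stag2-KO siStag1. Rad54b was at 1026, 1123 and 1139 in WT siGLO, 655, 816 and 786 in Stag1-KO, 807, 779 and 954 in Stag2-KO and 712, 862 and 844 in Stag2-KO siStag1. Wild-type libraries were above all 9 others. It fell in Stag1-KO (log2 fold change −0.54 ± 0.12, adjusted p = 0.00482), Stag2-KO (log2 fold change −0.37 ± 0.12, adjusted p = 0.0323; lost without WT siGLO replicate 2 or Stag2-KO replicate 2, with adjusted p = 0.103 to 0.123) and Stag2-KO siStag1 (log2 fold change −0.44 ± 0.12, adjusted p = 0.00686). Fsbp shares 35.8% of the Rad54b exon bases on the same strand, and its mean in WT siGLO was 38.3. It fell in Stag2-KO siStag1 (log2 fold change −0.93, adjusted p = 0.0341). Rad54l was at 1098, 1175 and 1120.5 in Stag2-KO siStag1 and 1529.6, 1482 and 1478 in WT siGLO, without overlap (log2 fold change −0.40 ± 0.08, adjusted p = 0.000791). In Stag2-KO it was at 1355, 1189 and 1409 (log2 fold change −0.18 ± 0.08, adjusted p = 0.105, or 0.0664 with the block).

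**Figure D3:**
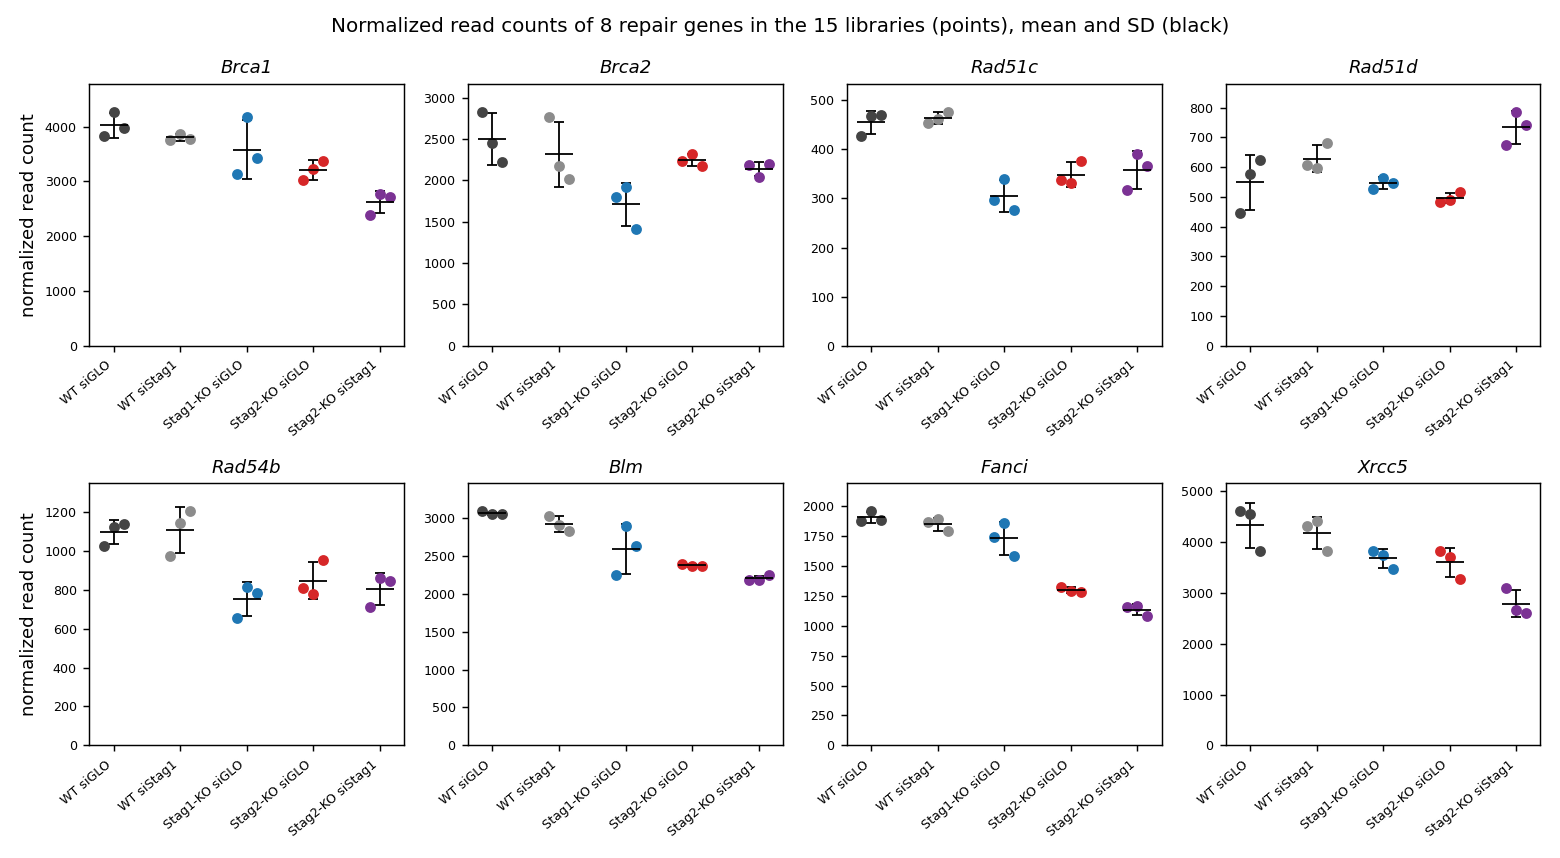
Normalized read counts (vertical axes, from 0) of 8 repair genes in each of the 15 libraries (points) with the mean and SD of each condition (black, n = 3). Fanci, Brca1 and Xrcc5 are lowest in Stag2-KO siStag1, Brca2 is lowest in Stag1-KO, and Rad51d is highest in Stag2-KO siStag1, where its libraries read 674, 786 and 740.2.

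Of the 7 end processing and helicase genes, 2 fell in each single knockout, and in Stag2-KO siStag1 2 fell and 2 rose. Called in either direction were 28.6% in Stag1-KO, 28.6% in Stag2-KO and 57.1% in Stag2-KO siStag1, against 20.0%, 28.3% and 43.9% of all genes, and the share in Stag2-KO is near the background. The helicase genes Blm and Wrn, whose products unwind recombination and fork structures, were the 2 that fell in the single knockouts. Blm was at 3083, 3047 and 3054 in WT siGLO, 2243, 2892 and 2627 in Stag1-KO, 2389, 2359 and 2368 in Stag2-KO and 2184, 2184 and 2241 in Stag2-KO siStag1. All 9 knockout libraries were below wild type, and Stag1-KO was the most spread. It fell in Stag2-KO (log2 fold change −0.37 ± 0.08, adjusted p = 0.00495) and Stag2-KO siStag1 (log2 fold change −0.47 ± 0.08, adjusted p = 0.000307). In Stag1-KO it was called (log2 fold change −0.24 ± 0.08, adjusted p = 0.0578), but not without WT siGLO replicates 1, 2 or 3 or Stag1-KO replicate 1, with adjusted p = 0.109 to 0.229.

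Wrn was at 449, 676 and 460.1 in Stag1-KO, 475, 586 and 544 in Stag2-KO and 731, 763 and 744 in WT siGLO. Both knockouts lay below wild type in every library, with Stag1-KO replicate 2 closest to it. Wrn fell in Stag1-KO (log2 fold change −0.50 ± 0.13, adjusted p = 0.0199) and Stag2-KO (log2 fold change −0.48 ± 0.13, adjusted p = 0.0188). In Stag2-KO siStag1 it was at 574, 659 and 634 (log2 fold change −0.26 ± 0.13, adjusted p = 0.137). Wrn lies on chromosome 8, and its log2 fold change minus the median of that chromosome was −0.31 in Stag1-KO, −0.27 in Stag2-KO and −0.03 in Stag2-KO siStag1.

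Of the 3 subunits of the break sensor MRE11-RAD50-NBN, 1 fell and 1 rose in Stag2-KO siStag1. Mre11a, the nuclease, was at 1576, 1450.0 and 1298 there and 1809, 1764 and 1612 in WT siGLO, and fell (log2 fold change −0.26 ± 0.10, adjusted p = 0.0479; lost without WT siGLO replicates 1 or 2 or Stag2-KO siStag1 replicate 3, with adjusted p = 0.122 to 0.193). Nbn, which binds ATM, was at 639.7, 658 and 714 in Stag2-KO siStag1 and 537, 605 and 509 in WT siGLO, without overlap, and rose (log2 fold change 0.29 ± 0.11, adjusted p = 0.0447; lost without WT siGLO replicates 1 or 3 or Stag2-KO siStag1 replicate 3, with adjusted p = 0.108 to 0.157). Rad50, the ATPase of the complex, was at 2219.6, 2529.7 and 2588 in Stag2-KO siStag1 and 1929.7, 2292 and 2227 in WT siGLO, with overlap, and was not called (log2 fold change 0.19 ± 0.12, adjusted p = 0.243). In Stag2-KO, Nbn was at 590.4, 716 and 622 (log2 fold change 0.22 ± 0.11, adjusted p = 0.147, or 0.0706 with the block). Rbbp8, which encodes the resection factor CtIP, was at 586, 639.7 and 665 in Stag2-KO siStag1 and 519.8, 549 and 534 in WT siGLO. It rose (log2 fold change 0.24 ± 0.11, adjusted p = 0.0921), a call that was lost without WT siGLO replicates 1, 2 or 3 or Stag2-KO siStag1 replicates 2 or 3, with adjusted p = 0.144 to 0.236. Exo1, the long-range resection exonuclease, was called in none of the comparisons without the block.

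**Figure D4:**
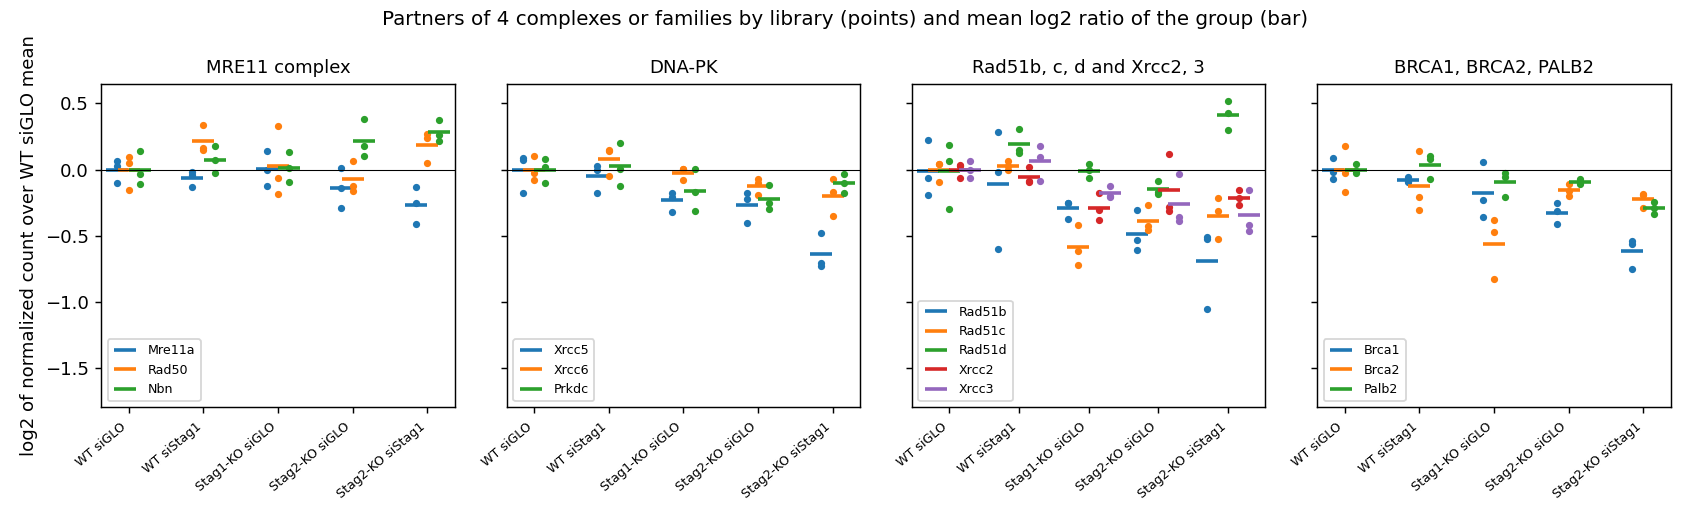
Log2 ratio of each library's normalized count to the WT siGLO mean (points) and mean log2 ratio per condition (bars) for the partners of MRE11-RAD50-NBN, of DNA-PK, of the complexes of Rad51b, Rad51c, Rad51d, Xrcc2 and Xrcc3, and of BRCA1, BRCA2 and PALB2. In Stag2-KO siStag1, Nbn lies above 0 and Mre11a below it, Xrcc5 lies below Xrcc6 and Prkdc, and Rad51d is the one paralog above 0.

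No checkpoint signalling or fork protection gene was called in Stag1-KO or in Stag2-KO by edgeR without the block, which added Chek1, Topbp1, Tipin and H2afx in Stag1-KO and H2afx in Stag2-KO, all lower. Without it 4 of 10 had an unadjusted p under 0.05 in Stag1-KO and 1 of 10 in Stag2-KO, and DESeq2 called 1 and 0. In Stag2-KO siStag1, 2 fell and 1 rose, so that 30% were called against 43.9% of all genes. Atm, the kinase activated by breaks, was at 1963, 1768 and 1889 there and 2422, 2335 and 2214 in WT siGLO, without overlap, and fell (log2 fold change −0.31 ± 0.10, adjusted p = 0.0189). Its substrate Chek2 was at 826, 1088 and 982 in Stag2-KO siStag1 and 1071, 1110.2 and 1139 in WT siGLO, with overlap, and was not called (log2 fold change −0.20 ± 0.12, adjusted p = 0.195). Chek1, the effector kinase of ATR, was at 1208, 1156 and 1134 in Stag2-KO siStag1 and 1397, 1353 and 1427 in WT siGLO, without overlap. It fell (log2 fold change −0.26 ± 0.11, adjusted p = 0.0742), and the call was lost without WT siGLO replicates 1, 2 or 3 or Stag2-KO siStag1 replicates 2 or 3, with adjusted p = 0.113 to 0.171. In Stag1-KO, Chek1 was at 926, 1273 and 1313 (log2 fold change −0.25 ± 0.11, adjusted p = 0.14, or 0.0778 with the block). Clspn, the adaptor that brings CHK1 to ATR, was at 1762, 1794 and 1869 in Stag2-KO siStag1 and 1702, 1539 and 1545 in WT siGLO and rose by 0.18 on the log2 scale (adjusted p = 0.0873). Leaving out WT siGLO replicates 2 or 3 or Stag2-KO siStag1 replicates 1, 2 or 3, with adjusted p = 0.102 to 0.239, ended that call.

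Atr and its activators were not called in any of the 7 tests without the block. Atr was at 1573, 1724 and 1675 in WT siGLO, 1244, 1729.9 and 1467 in Stag1-KO, 1551, 1565 and 1495 in Stag2-KO and 1566, 1688 and 1662 in Stag2-KO siStag1. Stag1-KO replicate 1 was the low library. Its partner Atrip ranged from 406 to 575 and its activator Topbp1 from 4004 to 4960.4 over the 15 libraries. Timeless and Tipin, which travel with the fork, were not called either. Tipin was at 1607, 1662 and 2040.3 in Stag1-KO and 2552, 2147 and 1894 in WT siGLO (log2 fold change −0.31 ± 0.14, adjusted p = 0.172, or 0.0717 with the block). H2afx was at 7310.1, 5806 and 6801 in Stag1-KO, 7519.5, 6128 and 6544 in Stag2-KO and 7477, 8133 and 8145 in WT siGLO, and was not called (log2 fold change −0.25 ± 0.10, adjusted p = 0.115 in Stag1-KO; log2 fold change −0.23 ± 0.10, adjusted p = 0.119 in Stag2-KO). In both it was called with the block (adjusted p = 0.0277 and 0.0314), with scaling by library size alone (0.0675 and 0.0829) and without replicate 1 of the knockout (0.0829 and 0.0472).

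In the Fanconi anemia pathway, 3 of 7 genes fell in each single knockout (42.9%) and 4 of 7 in Stag2-KO siStag1 (57.1%), against 9.93%, 14.4% and 21.3% of all genes that were lower in Stag1-KO, Stag2-KO and Stag2-KO siStag1. Fanci and Fancd2 encode partners in 1 heterodimer. Fanci was at 1874, 1954 and 1886 in WT siGLO, 1744, 1861 and 1586 in Stag1-KO, 1327, 1289.9 and 1284 in Stag2-KO and 1159, 1164 and 1080.0 in Stag2-KO siStag1. The Stag2-KO libraries were far below both wild type and Stag1-KO, and those with the Stag1 siRNA were lower again, without overlap. Fanci fell by 31.7% in Stag2-KO (log2 fold change −0.55 ± 0.07, adjusted p = 0.000118) and fell by 40.4% in Stag2-KO siStag1 (log2 fold change −0.75 ± 0.08, adjusted p = 1.79e-06), the largest fall of any member in that comparison. It was not called in Stag1-KO (log2 fold change −0.14 ± 0.07, adjusted p = 0.245), and its level was higher in Stag1-KO than in Stag2-KO (log2 fold change 0.41 ± 0.07, adjusted p = 0.0013). Polg overlaps 16% of the Fanci exon bases on the opposite strand and was itself lower in Stag2-KO (log2 fold change −0.38, adjusted p = 0.0124) and Stag2-KO siStag1 (log2 fold change −0.39, adjusted p = 0.0055), and higher in Stag1-KO than in Stag2-KO (log2 fold change 0.42, adjusted p = 0.00832). The counts list 379446 to 499487 reads per library as ambiguous. The counting tool and strand setting are not given in the sources used here, so how reads of these overlapping parts were assigned is not known.

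Fancd2 was at 2279, 2272 and 2181 in WT siGLO, 1778, 2072 and 1798 in Stag1-KO, 1920.3, 1779 and 1837 in Stag2-KO and 1864, 1971 and 1794 in Stag2-KO siStag1. All 9 knockout libraries were below wild type. It fell in each, with log2 fold changes of −0.25 in Stag1-KO (adjusted p = 0.0358; lost without WT siGLO replicate 2 or Stag1-KO replicates 1 or 3, with adjusted p = 0.103 to 0.128), −0.28 in Stag2-KO (adjusted p = 0.0163) and −0.26 in Stag2-KO siStag1 (adjusted p = 0.0147). Fanca, a core complex subunit on chromosome 8, was at 1204, 1207 and 1599 in WT siGLO, where replicate 3 was high. It was at 1202, 982 and 994 in Stag1-KO, 1198, 925 and 1042 in Stag2-KO and 1153, 1019 and 1055 in Stag2-KO siStag1, all below the wild-type libraries, with Stag1-KO replicate 1 just under the lowest of them. It was called in Stag1-KO (log2 fold change −0.34 ± 0.12, adjusted p = 0.0845; lost without WT siGLO replicate 3 or Stag1-KO replicates 2 or 3, with adjusted p = 0.197 to 0.359), in Stag2-KO (log2 fold change −0.34 ± 0.12, adjusted p = 0.0628; lost without WT siGLO replicate 3 or Stag2-KO replicates 2 or 3, with adjusted p = 0.129 to 0.31) and in Stag2-KO siStag1 (log2 fold change −0.31 ± 0.12, adjusted p = 0.0592; lost without WT siGLO replicate 3 or Stag2-KO siStag1 replicates 2 or 3, with adjusted p = 0.133 to 0.316).

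Brip1, a helicase that binds BRCA1, fell in Stag1-KO, where it was at 379.9, 495 and 353 against 560.0, 583 and 515 in WT siGLO (log2 fold change −0.43 ± 0.12, adjusted p = 0.0253). It was at 442, 490.3 and 432 in Stag2-KO (log2 fold change −0.28 ± 0.12, adjusted p = 0.114, or 0.0295 with the block) and back within the wild-type range at 533, 579 and 521 in Stag2-KO siStag1. Fancm, the translocase that anchors the core complex, was at 1244, 1189.9 and 1139.7 in Stag2-KO siStag1 and 1606, 1489 and 1397 in WT siGLO, without overlap, and fell (log2 fold change −0.33 ± 0.09, adjusted p = 0.00688). In WT siStag1 it was at 1323, 1234 and 1131, also below every WT siGLO library (log2 fold change −0.29 ± 0.09, adjusted p = 0.362, or 0.0547 with the block). Fancm was below every WT siGLO library in Stag1-KO (1325, 1340 and 1212) and Stag2-KO (1301, 1373 and 1218) as well. In both it was called lower with the block and not without it. Fancc and Fancl were not called in any comparison.

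Ku80, encoded by Xrcc5, was the end joining gene with the largest change. It was at 4606, 4561 and 3825 in WT siGLO, 3827, 3757 and 3471 in Stag1-KO, 3826, 3710.2 and 3271 in Stag2-KO and 3099, 2659 and 2616 in Stag2-KO siStag1. The last 3 values were the lowest of the 15 libraries. Xrcc5 fell by 35.5% against WT siGLO (log2 fold change −0.63 ± 0.10, adjusted p = 0.000119) and also against Stag2-KO (log2 fold change −0.37 ± 0.10, adjusted p = 0.047; lost without Stag2-KO replicates 1 or 2 or Stag2-KO siStag1 replicates 2 or 3, with adjusted p = 0.126 to 0.204). In Stag2-KO it was called (log2 fold change −0.27 ± 0.10, adjusted p = 0.0651) but not without WT siGLO replicates 1 or 2 or Stag2-KO replicates 2 or 3, with adjusted p = 0.107 to 0.215. In Stag1-KO it was not called without the block and was called lower with it. Its mean was 3685 in Stag1-KO, 3602 in Stag2-KO and 4331 in WT siGLO. Xrcc6, which encodes the partner Ku70, was at 1960.4, 1832 and 1616 in Stag2-KO siStag1 and 2212, 2019 and 1950.3 in WT siGLO, with overlap. Its fall was smaller (log2 fold change −0.19 ± 0.09, adjusted p = 0.0945; lost without WT siGLO replicates 1 or 2 or Stag2-KO siStag1 replicates 2 or 3, with adjusted p = 0.143 to 0.351). Prkdc, the catalytic subunit that the Ku pair recruits, was at 1627, 1789.9 and 1583 in Stag2-KO and 2051, 1971 and 1808 in WT siGLO (log2 fold change −0.22 ± 0.10, adjusted p = 0.128, or 0.057 with the block). Lig4, the end joining ligase on chromosome 8, was at 263, 286 and 264 in Stag1-KO and 400.2, 356 and 315 in WT siGLO, without overlap. It fell in Stag1-KO (log2 fold change −0.40 ± 0.12, adjusted p = 0.0439), but not without WT siGLO replicates 1 or 2 or Stag1-KO replicates 1 or 3, with adjusted p = 0.1 to 0.177. In Stag2-KO Lig4 was at 336, 298 and 269 (log2 fold change −0.24). There it was not called without the block and was called lower with it (adjusted p = 0.0798).

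Parp1 and Msh6, the members with the highest levels per kilobase after H2afx, fell in Stag2-KO siStag1 and were not called in the single knockouts. Parp1 was at 15034, 14659 and 14494 there and 15369, 16857 and 18512 in WT siGLO, without overlap (log2 fold change −0.20 ± 0.07, adjusted p = 0.0437; lost without WT siGLO replicate 3 or Stag2-KO siStag1 replicates 2 or 3, with adjusted p = 0.103 to 0.2). Msh6 was at 15104, 12552 and 11996 in Stag2-KO siStag1 and 17449.8, 16533 and 14990.4 in WT siGLO, with overlap (log2 fold change −0.30 ± 0.11, adjusted p = 0.0403; lost without WT siGLO replicate 1 or Stag2-KO siStag1 replicates 2 or 3, with adjusted p = 0.125 to 0.155). Xrcc1, the scaffold of single-strand break repair, was called in no comparison. Of the 3 replication protein A genes, edgeR without the block called 0 against WT siGLO in any condition, with 0, 0 and 0 at an unadjusted p under 0.05 in Stag1-KO, Stag2-KO and Stag2-KO siStag1, where DESeq2 called 0, 0 and 0. On the opposite strand, exons of Lrrc41 share 15.4% of the Rad54l exon bases, those of Zfp276 10.5% of Fanca, those of Desi1 7.69% of Xrcc6, those of Ankrd49 2.6% of Mre11a, those of Fbxo11 0.782% of Msh6 and those of Klc1 0.436% of Xrcc3, so the limit given for Fanci and Polg holds for these members too. In Stag2-KO siStag1, Desi1 rose (log2 fold change 0.19, adjusted p = 0.0654), as did Ankrd49 (log2 fold change 0.58, adjusted p = 0.00461) and Fbxo11 (log2 fold change 0.41, adjusted p = 0.00329), while Lrrc41, Zfp276 and Klc1 were not called.

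Acute depletion of Stag1 in wild-type cells left no member called by edgeR, with 2 of 44 at an unadjusted p under 0.05 and 0 called by DESeq2, against 0.248% of all genes called, 0.103% higher and 0.145% lower. With the replicate block 1 member, Fancm, was called lower, against 1.63% of all genes, 0.731% higher and 0.896% lower. The median log2 fold change of the 44 was −0.02, and single members ranged from −0.29 to 0.22. The largest changes in size were those of Fancm, Fancc (log2 fold change −0.27 ± 0.15, adjusted p = 0.895) and Atm (log2 fold change −0.25 ± 0.10, adjusted p = 0.636).

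Adding the Stag1 siRNA to Stag2-KO cells moved 2 of 44 members, Rad51d up and Xrcc5 down, against 6.37% of all genes called, 2.98% higher and 3.39% lower. With the replicate block 8 were called, against 14.1% of all genes, 7.22% higher and 6.91% lower, and the 6 added were Brca1, Rad54l, Fanci and Msh6 lower and Rad50 and Brip1 higher. The log2 fold change was −0.29 for Brca1 (adjusted p = 0.122, or 0.0182 with the block), −0.20 for Fanci (adjusted p = 0.182, or 0.0666) and −0.22 for Rad54l (adjusted p = 0.145, or 0.0751). The test of whether the siRNA effect differed between Stag2-KO and wild-type cells called 0 members by edgeR and 0 by DESeq2, with 2 of 44 at an unadjusted p under 0.05, against 0.159% of all genes called. The larger number of members called in Stag2-KO siStag1 than in WT siStag1, both against WT siGLO, is therefore not shown to be a different response to the siRNA for any single member. Without Stag2-KO siStag1 replicate 3, the number called against WT siGLO was 13 instead of 23, and without Stag2-KO replicate 1, Stag2-KO siStag1 replicate 2 or Stag2-KO siStag1 replicate 3 the number called against Stag2-KO was 1. The shares of all genes called in these fits are not given here, so these falls cannot be set against a background.

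Between the single knockouts, 4 of 44 members differed, against 25.7% of all genes called, 12.7% higher and 12.9% lower in Stag1-KO. Fanci was higher in Stag1-KO, and Brca2, Rbbp8 and Rpa3 were lower. Rpa3, the smallest subunit of replication protein A, was at 410.4, 439 and 682 in Stag1-KO and 774, 665 and 681 in Stag2-KO, where Stag1-KO replicate 3 lay apart from its group (log2 fold change −0.47 ± 0.15, adjusted p = 0.0415; lost without Stag1-KO replicates 1 or 2 or Stag2-KO replicate 1, with adjusted p = 0.116 to 0.167). Rbbp8 was at 421, 529.6 and 429 in Stag1-KO and 539, 548 and 587 in Stag2-KO, without overlap (log2 fold change −0.28 ± 0.11, adjusted p = 0.0829; lost without Stag1-KO replicates 1 or 3 or Stag2-KO replicates 1, 2 or 3, with adjusted p = 0.105 to 0.227). Without Stag2-KO replicate 1 or 2, 2 members were called. With the replicate block 9 were called, against 37.3% of all genes, 18.1% higher and 19.2% lower, adding Nbn, Exo1, Tipin and Rpa2 lower and Msh6 higher in Stag1-KO.

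Chromosome 8 carries 3 of the members, Wrn, Fanca and Lig4, and all 3 fell in Stag1-KO, while Wrn and Fanca fell in Stag2-KO. Of the 758 genes tested on this chromosome, 27.2% were lower in Stag1-KO, 33.4% in Stag2-KO and 40.1% in Stag2-KO siStag1, against 9.93%, 14.4% and 21.3% of all genes. Library medians of the 758 chromosome 8 genes relative to the WT siGLO mean were −0.12 to −0.23 on the log2 scale in Stag1-KO, −0.22 to −0.23 in Stag2-KO and −0.21 to −0.22 in Stag2-KO siStag1, against −0.01 to 0.02 in WT siStag1. Minus the chromosome median, the log2 fold change of Fanca was −0.14 in both single knockouts and −0.08 in Stag2-KO siStag1. That of Lig4 was −0.20 in Stag1-KO, −0.04 in Stag2-KO and 0.14 in Stag2-KO siStag1. With the genes of chromosome 8 left out of the fit, 7 of the 41 other members were called in Stag1-KO, 10 in Stag2-KO and 21 in Stag2-KO siStag1, in a fit chosen after the data were seen. That fit called 19.1%, 27.4% and 43.1% of all genes it tested. On chromosome 9, which carries 8 members including Atm, Chek1 and Mre11a, the medians were −0.04 in Stag1-KO, −0.05 in Stag2-KO and −0.03 in Stag2-KO siStag1. On chromosome 11, with 7 members including Brca1, Rad51c, Rad51d and Brip1, they were 0.01, 0.00 and −0.01, and on chromosome 12, with 3 members, −0.05, −0.04 and −0.05. Chromosomes X and Y carry no member. The medians were −0.05, 0.12 and 0.13 on X, and 0.26, −2.23 and −2.14 over the 4 genes tested on Y.

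**Figure D5:**
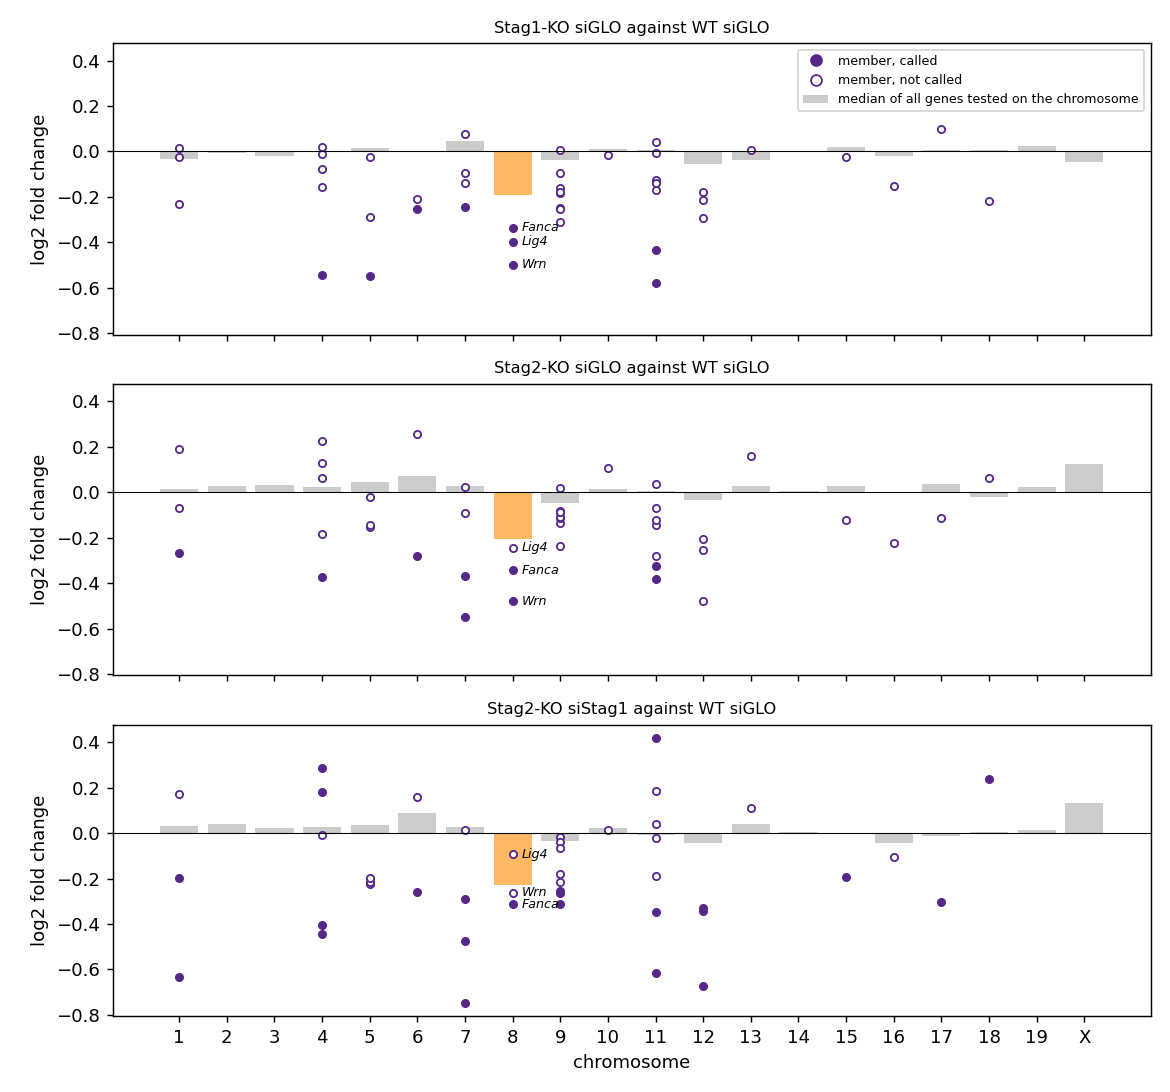
Median log2 fold change of all genes tested on each chromosome except Y (bars, chromosome 8 in orange) and log2 fold change of each of the 44 genes on it (points, filled where called, the 3 on chromosome 8 named) against WT siGLO, for Stag1-KO, Stag2-KO and Stag2-KO siStag1. The chromosome 8 medians are −0.19, −0.21 and −0.23, and 41 of the 44 genes lie on other chromosomes.

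Other repair genes were taken from a further list, of which 81 were tested. In Stag1-KO 4 rose and 11 fell, in Stag2-KO 4 and 12, and in Stag2-KO siStag1 7 and 21, with medians of −0.09, −0.03 and −0.07. The shares called in either direction were 18.5%, 19.8% and 34.6%, all below the 20.0%, 28.3% and 43.9% of all genes. The shares called lower were 13.6%, 14.8% and 25.9%, against 9.93%, 14.4% and 21.3%. Mlh3, a mismatch repair gene, fell in all 3 (log2 fold change −0.80, adjusted p = 0.000333 in Stag1-KO; log2 fold change −0.61, adjusted p = 0.00241 in Stag2-KO; log2 fold change −0.83, adjusted p = 7.08e-05 in Stag2-KO siStag1). Trp53bp1, which encodes the end-protection factor 53BP1 that restrains resection, rose in Stag1-KO (log2 fold change 0.41, adjusted p = 0.00529), in Stag2-KO siStag1 (log2 fold change 0.68, adjusted p = 2.68e-05) and in Stag2-KO siStag1 against Stag2-KO (log2 fold change 0.34, adjusted p = 0.0448). The mismatch gene Msh3 rose in Stag2-KO (log2 fold change 0.47, adjusted p = 0.0282) and Stag2-KO siStag1 (log2 fold change 0.54, adjusted p = 0.00674). The translesion polymerases Polk in Stag2-KO (log2 fold change −0.84, adjusted p = 0.00638) and Polh in Stag2-KO siStag1 (log2 fold change −0.72, adjusted p = 0.00687) fell. In Stag2-KO siStag1 against Stag2-KO 1 rose and 2 fell, and in WT siStag1 0 were called. With the replicate block, 7 higher and 21 lower were called in Stag1-KO, 9 higher and 17 lower in Stag2-KO and 3 higher and 5 lower in Stag2-KO siStag1 against Stag2-KO, against 30.6%, 39.4% and 14.1% of all genes called with the block.

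Of 22 tested genes for p53 and its targets, 1 rose and 5 fell in Stag1-KO, 1 and 10 in Stag2-KO, 3 and 4 in Stag2-KO siStag1, and 1 and 0 when the siRNA was added to Stag2-KO. In the comparisons with WT siGLO, 27.3%, 50% and 31.8% were called, against 20.0%, 28.3% and 43.9% of all genes. The shares called lower were 22.7%, 45.5% and 18.2%, against 9.93%, 14.4% and 21.3% of all genes. With the block, 1 higher and 8 lower were called in Stag1-KO, 2 higher and 10 lower in Stag2-KO, 1 higher and 0 lower in WT siStag1 and 7 higher and 0 lower when the siRNA was added to Stag2-KO, where 7.22% of all genes were higher. Of all genes, the block called 15.3% higher and 15.3% lower in Stag1-KO, 19.9% and 19.6% in Stag2-KO, and 0.731% and 0.896% in WT siStag1. Rrm2b, a p53-induced ribonucleotide reductase subunit, fell in Stag1-KO (log2 fold change −0.91, adjusted p = 0.00281), Stag2-KO (log2 fold change −0.79, adjusted p = 0.0057) and Stag2-KO siStag1 (log2 fold change −0.84, adjusted p = 0.00182). Cdkn1a, the cell cycle inhibitor induced by p53, fell in Stag1-KO (log2 fold change −0.59, adjusted p = 0.0356) and Stag2-KO (log2 fold change −0.82, adjusted p = 0.00463). Perp rose in Stag1-KO (log2 fold change 0.80, adjusted p = 0.0238). Trp53 itself rose in Stag2-KO (log2 fold change 0.28, adjusted p = 0.0867) and Stag2-KO siStag1 (log2 fold change 0.31, adjusted p = 0.0425). Pmaip1, a pro-apoptotic target, rose in Stag2-KO siStag1 (log2 fold change 0.42, adjusted p = 0.0322). Of 42 replication and S-phase genes, 2 rose and 9 fell in Stag1-KO, 3 rose and 2 fell in Stag2-KO, and 3 rose and 15 fell in Stag2-KO siStag1. That is 26.2%, 11.9% and 42.9% called, against the same shares of all genes. Adding the Stag1 siRNA to Stag2-KO lowered 6 of the 42 and raised 0, against 3.39% of all genes lower and 2.98% higher, among them Orc1 (log2 fold change −0.43, adjusted p = 0.0137) and E2f2 (log2 fold change −0.54, adjusted p = 0.0474). E2f1 and E2f2, activators of S-phase genes, fell in Stag2-KO siStag1 (log2 fold change −0.65, adjusted p = 0.000453; log2 fold change −0.83, adjusted p = 0.00032), while E2f3 rose (log2 fold change 0.65, adjusted p = 0.000242). With the block, 5 higher and 15 lower were called in Stag1-KO, 6 higher and 9 lower in Stag2-KO, where falls then outnumbered rises, and 0 higher and 10 lower when the siRNA was added to Stag2-KO, against 30.6%, 39.4% and 14.1% of all genes called. In WT siStag1, 0 genes of either list were called without the block. Whether these shifts take part in those of the 44 genes was not tested, and in bulk RNA fewer cells of a cycle phase and less RNA per cell cannot be told apart.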

How the data were processed

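PolyA RNA-seq was read from 15 libraries, 3 for each of 5 conditions, grouped by the sample labels. The submitters' processing notes name STAR and the mm10 build, and the values the authors deposited are unnormalized read counts for each gene and library. The sources used here do not give the counting tool, annotation or strand setting. The 4 summary lines of the counts were left out. Counts were filtered with filterByExpr (minimum 10 counts, total 15), scaled by TMM and tested with edgeR 4.0.16 in R 4.3.3 (glmQLFit over all 15 libraries, two-sided glmQLFTest, Benjamini-Hochberg adjustment over 14508 genes, adjusted p under 0.1, the threshold of the study). The study used DESeq2, which is an alternative here (DESeq2 1.42.0). Standard errors are the log2 fold change over the square root of F. Depth was 14982560 to 19070126 reads on genes per library.

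The members and gene lists were chosen with earlier results of these data known. Values are given for called members with the largest changes, at most 12 in each comparison, and for their complex partners. Parp1, Msh6 and H2afx were added after their values were seen. From other lists at most 4 called genes per comparison were named, the 2 largest rises and falls with a mean of at least 50 normalized counts. Members overlapping other genes and chromosome medians were read from GENCODE M21 on mm10, and promoters from RefSeq.

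Replicate numbers come from the labels. Deviations from the condition means over 11529 genes correlated with mean r = 0.309 (−0.09 to 0.765) in 30 same-numbered pairs and −0.15 in 60 others. Every same-numbered pair exceeded 0.1 in 5 comparisons, where the block is given beside member calls it changed and beside list counts it moved by over 1.5 times, but not for Stag2-KO siStag1 against WT siGLO. Alternatives were DESeq2, other scalings and filters, only the libraries compared, adjusted p under 0.05, the replicate block, each library left out and, chosen after the data were seen, no chromosome 8 genes. The tests were checked on simulated counts with the same spread for every gene. Those counts held no deviation shared by replicate number, so that check does not cover the pairing. No 2 libraries of a condition were copies.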

Additional observations from a re-analysis of the deposited data

How the results depend on the processing

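No called member changed direction under any alternative run. Relative to the counts reported, the replicate block moved the number of members called to 17 in Stag1-KO, 19 in Stag2-KO, 1 in WT siStag1, 8 in Stag2-KO siStag1 against Stag2-KO and 9 between the knockouts. It gave 30 (6 higher, 24 lower) in Stag2-KO siStag1 against WT siGLO, Rpa1 among them (adjusted p = 0.0208), against 53.7% of all genes called, 27.5% higher and 26.3% lower, where same-numbered libraries of replicate 2 did not deviate together (r = 0.045), and 0 for the difference of siRNA effects, where the target Stag1 itself had an adjusted p of 0.0253 with the block. DESeq2 called 4 in Stag2-KO siStag1 against Stag2-KO (8.34% of all genes with an adjusted p). With only the libraries compared in the fit, 1 was called there (1.61% of all genes) and 2 between the knockouts (17.5%). Leaving out 1 library at a time gave 6 to 12 in Stag1-KO (9 with all), 6 to 10 in Stag2-KO (9 with all), 0 in WT siStag1, 13 to 23 in Stag2-KO siStag1, 1 to 2 against Stag2-KO, 2 to 4 between the knockouts and 0 for the difference. The share of all genes called in each of these fits is not given here, so these counts cannot be set against a background. The low values came without WT siGLO replicate 2 in both single knockouts and without Stag2-KO siStag1 replicate 3 (13). The cause was not tested. With 3 libraries per condition, members not called are not shown to be unchanged.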
